A study of Mus musculus with 10 samples.

Results

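The genes described here are 44 genes of the unfolded protein response and of protein folding in the endoplasmic reticulum (ER), taken from a list of gene symbols chosen by function and found by their Ensembl identifiers among the 55401 genes counted in mouse liver. Livers of 5 WT mice and 5 THRB-KO mice of the C57Bl6/J strain were profiled by poly(A)-selected RNA sequencing, with 1 library per mouse. THRB-KO mice are labelled as a liver knockout of thyroid hormone receptor beta (Thrb) and came from a cross of Thrb-loxP/loxP mice with Afp-Cre mice, in which the alpha-fetoprotein promoter drives the recombinase, and their littermates served as WT. All were untreated and fed standard chow. The sex, age and time of liver collection of these mice, and whether the WT littermates carried loxP or Cre alleles, are not given in the sources used here. Of the 44 genes, 43 reached the filter of at least 1 CPM (counts scaled to a common library total) in at least 5 libraries and were tested together with the other genes, 12234 in all. The exception was Atf3.

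Libraries held between 26477195 and 28590704 counts, so that 3 counts stood for 0.105 to 0.113 CPM. Thrb itself fell in THRB-KO livers, from 33.3 ± 0.643 to 26.7 ± 1.93 normalized CPM (SD, n = 5 each, edgeR adjusted p = 0.0359), with each THRB-KO mouse below each WT mouse. Most of the Thrb counts remained in THRB-KO livers, and counts per gene do not show from which part of the gene they come. Hepatocyte markers were abundant in both genotypes, with summed levels of 79430 to 119500 normalized CPM in WT and 94830 to 108000 in THRB-KO livers over 6 genes. In whole liver, fewer cells of a type and less RNA per cell cannot be told apart. A list of 20 acute-phase plasma protein genes was lower in THRB-KO livers, with 13 of the 20 past an adjusted p of 0.15, and its summed level ranged from 37460 to 86850 normalized CPM in WT and from 24540 to 41400 in THRB-KO mice. The 8 Kupffer cell markers were all fitted lower in THRB-KO livers, with a median log2 fold change of -0.715. None passed the test, and 4 had an unadjusted p below 0.05 (50%, against 13.6% of all tested genes, edgeR). They summed to 106.6 to 406.5 normalized CPM in WT and 120.2 to 245.1 in THRB-KO mice. Among 9 B and plasma cell markers the sum was 11.49 to 27.49 in WT and 8.24 to 20.46 in THRB-KO mice, and the plasma cell receptor Tnfrsf17 was at 0 in all but 1 library. Of 7 stellate cell markers 1 rose (summed level 86.37 to 133.5 in WT, 118 to 140.3 in THRB-KO mice). Of the 2 T, NK and neutrophil markers tested, Ptprc and S100a8, the neutrophil gene S100a8 fell. All 7 markers of that list summed to 7.228 to 20.38 in WT and 5.131 to 8.892 in THRB-KO mice. The T and NK markers among them, Cd3e, Cd3g, Nkg7 and Ncr1, reached at most 0.822 normalized CPM and were not tested. None passed among the 6 endothelial markers (133.5 to 162.5 and 139.5 to 179), the 3 of 5 cholangiocyte markers tested (24.62 to 46.36 and 24.05 to 28.6 over all 5) and the 13 of 14 clock genes tested (710.1 to 840.1 and 758.9 to 876.3 over all 14), though 2 cholangiocyte markers were lower at an unadjusted p below 0.05. The part of these cell types in the values below was not tested. The acute-phase genes entered an alternative fit as a covariate. That fit cannot tell them apart from genotype, because their first component followed it (correlation 0.844 in absolute value).

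Hepatocytes secrete most plasma proteins, which enter the ER through the Sec61 channel, fold there with the help of chaperones and disulphide isomerases, and are sent back to the cytosol for degradation when they do not fold. Unfolded protein in the ER activates IRE1 (Ern1), which splices the mRNA of the transcription factor XBP1, PERK (Eif2ak3), which slows translation and raises ATF4, and ATF6, which is cut in the Golgi to release a transcription factor. Together they raise chaperones, degradation components and, through ATF4, genes of amino acid supply and cell death. Counts per gene show the amount of these mRNAs, and not the splicing of Xbp1, the cleavage of ATF6 or the phosphorylation of PERK.

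The response is known to reach its targets through short promoter elements, and the matches to them are printed first because the values of the genes that carry them are given below. RefSeq promoter windows on GRCm38.p6, from 250 bases before to 50 bases after the transcription start, were found for 37 of the 44 genes. The ER stress response element ERSE, in which CCAAT and CCACG are 9 bases apart on either strand and which ATF6 binds together with NF-Y, lay in the windows of 9 of these 37 genes (24.3%), against 39 of all 32851 windows (0.119%). Its compact form ERSE-II, ATTGG and CCACG with 1 base between them, was found in Herpud1 and Dnajb11, or 2 of 37 genes (5.41%), against 12 of all windows (0.0365%). The C/EBP-ATF response element CARE, TGATGNAA, through which ATF4 acts, was found in 5 of the 37 genes (13.5%), namely Asns, Atf3, Chac1, Herpud1 and Trib3, against 3.97% of all windows. The motif TGACGTGG, known as UPRE, was in none of the windows of these genes (0 of 37 genes) and in 0.676% of all windows. The listed genes are in part known for these elements, so their share is a description and no test was made. No match of one motif overlapped a match of another. The ERSE stretches with 10 bases on each side are given in the direction of the gene, with the fixed letters of the element in capitals, and Hsp90b1 held 2 of them.
Calr, chr8:84847065-84847103, minus strand: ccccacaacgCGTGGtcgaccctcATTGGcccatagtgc
Canx, chr11:50325790-50325828, minus strand: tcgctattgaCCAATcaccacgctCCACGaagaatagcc
Creld2, chr15:88819510-88819548, plus strand: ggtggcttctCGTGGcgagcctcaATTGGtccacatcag
Derl3, chr10:75893232-75893270, plus strand: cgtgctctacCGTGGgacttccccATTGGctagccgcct
Dnajc3, chr14:118937817-118937855, plus strand: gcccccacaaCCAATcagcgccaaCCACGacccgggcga
Hsp90b1, chr10:86705628-86705666, minus strand: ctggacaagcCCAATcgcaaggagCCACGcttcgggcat
Hsp90b1, chr10:86705523-86705561, minus strand: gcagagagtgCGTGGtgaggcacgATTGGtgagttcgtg
Hspa5, chr2:34772015-34772053, plus strand: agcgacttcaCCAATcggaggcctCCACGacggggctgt
Pdia6, chr12:17266481-17266519, plus strand: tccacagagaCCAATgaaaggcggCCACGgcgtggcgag
Syvn1, chr19:6046522-6046560, plus strand: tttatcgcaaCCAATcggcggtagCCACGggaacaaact

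Herpud1, the only one of the genes to pass the test below, held an ERSE-II and a CARE, in capitals in the 250 bases before its start (chr8:94386179-94386428, GRCm38.p6, plus strand).
Herpud1: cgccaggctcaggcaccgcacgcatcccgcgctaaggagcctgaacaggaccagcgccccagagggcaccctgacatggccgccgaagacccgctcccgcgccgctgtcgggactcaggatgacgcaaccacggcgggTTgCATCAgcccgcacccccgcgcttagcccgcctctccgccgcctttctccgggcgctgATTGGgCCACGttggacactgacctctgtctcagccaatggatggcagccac

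Of the 43 genes tested, 1 rose in THRB-KO livers and 0 fell at an adjusted p below 0.15 (quasi-likelihood F-test of edgeR, Benjamini-Hochberg adjusted over all genes tested). This is 2.33% of the genes, below the 4.08% of all tested genes that passed the same threshold (1.51% higher and 2.57% lower in THRB-KO livers). At an adjusted p below 0.05 there were 0 with edgeR, against 1.35% of all tested genes, while DESeq2 called 1 and limma-voom 0. At an unadjusted p below 0.05 there were 5 genes with edgeR, all of them higher in THRB-KO livers (Herpud1, Trib3, Creb3l3, Canx and Ppp1r15a). These made up 11.6% of the genes, against 13.6% of all tested genes in both directions, 6.15% higher and 7.41% lower. In 0 of the 43 genes were the 2 genotypes without overlap, against 3.64% of all tested genes. The fitted log2 fold change was above 0 in 32 genes (74.4%), against 50.1% of all tested genes, and its median was 0.075, against 0.00054 over all tested genes. The genes were measured in the same 10 mice and are not independent of each other, and without THRB-KO replicate 5 the median was 0.023. The 95% confidence interval of the fold change lay within 0.5 of 0 on the log2 scale in 29 of the 43 genes (67.4%), against 65.5% of all tested genes, so that in these 29 a change beyond that size lay outside the interval.

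**Figure D1:**
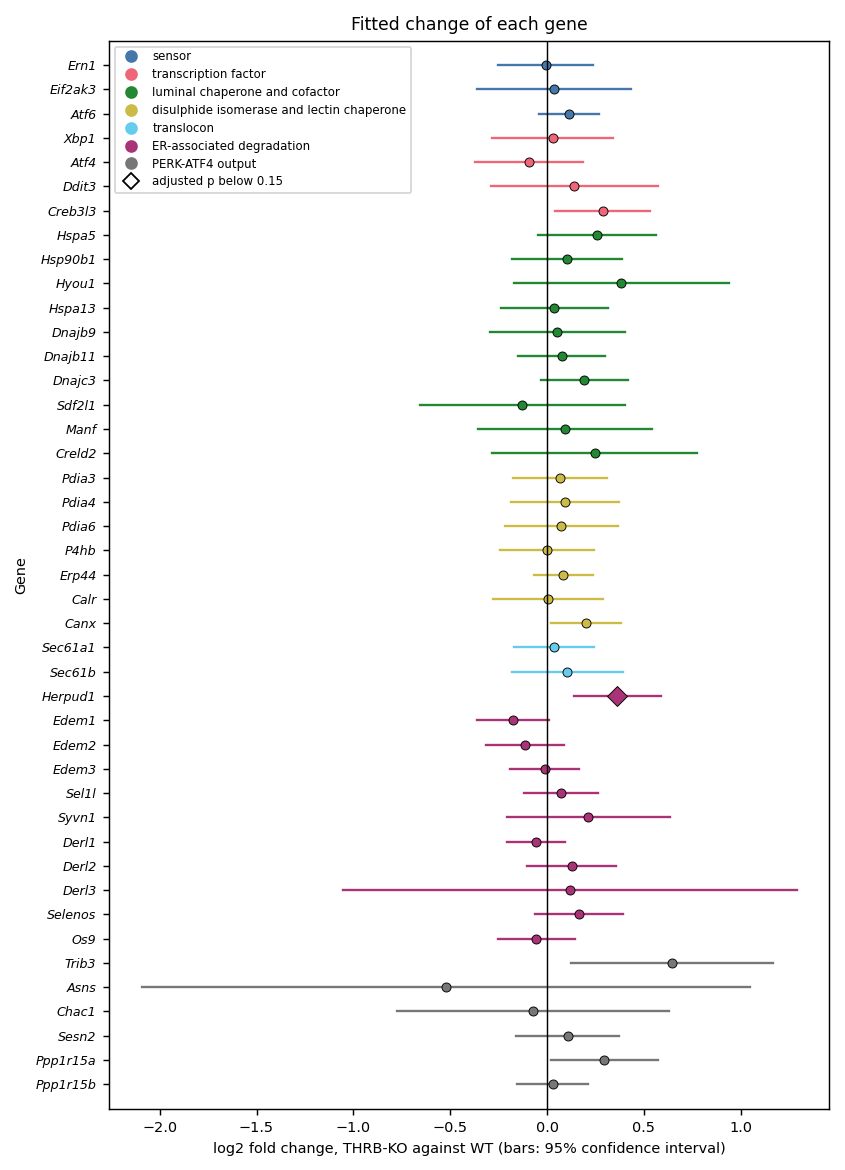
Fitted log2 fold change of each of the 43 genes in THRB-KO against WT livers (x axis), with the 95% confidence interval as a bar, the role as colour and the 1 gene past an adjusted p of 0.15, Herpud1, as a diamond. Most intervals include 0, and those of Asns and Derl3 are the widest.

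In WT livers the levels of these genes, compared per kilobase of exon, covered a wide range. The disulphide isomerase P4hb was the most abundant, with 527 ± 46.8 normalized CPM per kb (SD, n = 5), followed by the lectin chaperone Calr with 336 ± 49.0. Hspa5, the ER Hsp70 chaperone also called BiP, stood at 145 ± 25.5, Herpud1 at 142 ± 17.5 and Pdia3 at 140 ± 17.0 normalized CPM per kb, 3 neighbours that did not differ beyond their spread. At the other end were Atf3 at 0.394 ± 0.158, Ddit3 at 1.93 ± 0.235, Asns at 2.27 ± 2.32 and Eif2ak3 at 2.62 ± 0.624. Atf3, a stress-induced transcription factor, ranged from 0.469 to 1.38 normalized CPM in WT and from 0.243 to 1.66 in THRB-KO mice, which were 7 to 50 counts per library. Ddit3, which encodes the cell death factor CHOP, had 69 to 155 counts per library. The genes at the low end, outside the sensors, are largely those that the PERK branch raises.

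Herpud1, a membrane protein that holds the ER degradation complex together, was at 322, 295, 397, 343 and 303 normalized CPM in WT mice 1 to 5 and at 391, 495, 429, 400 and 419 in THRB-KO mice 1 to 5. Each THRB-KO mouse was above the WT mice apart from WT mouse 3, which was higher than THRB-KO mouse 1. The mean rose from 332 ± 40.9 to 427 ± 40.9 (SD, n = 5 each), 1.29-fold, with a log2 fold change of 0.36 (standard error 0.10, 95% confidence interval 0.14 to 0.59, adjusted p = 0.117 with edgeR's quasi-likelihood test). The direction was the same in all 21 alternative fits, but the call was not. Leaving out single mice, it was lost in 8 of 10 cases (adjusted p = 0.153 to 0.266 in these 8 edgeR fits), that is without WT mouse 1, 2, 4 or 5 and without THRB-KO mouse 2, 3, 4 or 5, where the log2 fold change was 0.309 to 0.385. It was also lost with the replicate number as a block (0.365, adjusted p = 0.241 with edgeR). With the first component of the acute-phase genes as a covariate it was lost as well (0.193, adjusted p = 0.999 with edgeR), in a fit that called 9 of all tested genes.

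The other 10 degradation genes tested gave no call with edgeR. Edem1, a lectin that extracts misfolded glycoproteins, had the lowest unadjusted p among them (0.0601) and a log2 fold change of -0.18 (95% confidence interval -0.36 to 0.0088). It was at 185, 205, 183, 189 and 234 normalized CPM in WT mice and at 167, 175, 186, 165 and 187 in THRB-KO mice, and the genotypes overlapped. Edem2, of the same family, was at -0.12 (95% confidence interval -0.32 to 0.085), and Selenos, a selenoprotein of the degradation complex, at 0.16 (95% confidence interval -0.063 to 0.39), both as log2 fold changes. Derl1, a membrane component of the same complex, ranged from 159 to 180 normalized CPM in WT and from 156 to 178 in THRB-KO mice. Derl3, a derlin known from secretory cells, ranged from 1.8 to 13 normalized CPM in WT and from 2.54 to 12.7 in THRB-KO mice.

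None of the 3 sensors passed the test with edgeR. Ern1 was at 101.6, 103.6, 95.5, 110.5 and 87.7 normalized CPM in WT mice and at 82.7, 86.3, 100.1, 127.4 and 99.6 in THRB-KO mice, where both the lowest and the highest of the 10 values lay. Its log2 fold change was -0.0083 (95% confidence interval -0.25 to 0.24). Eif2ak3 was at 10.6, 15.2, 21.1, 15.7 and 16.4 normalized CPM in WT and at 21.3, 15.9, 11.6, 16.7 and 15.5 in THRB-KO mice, and the genotypes overlapped over nearly the whole range. Its log2 fold change was 0.036 (95% confidence interval -0.36 to 0.43), and 8.05% of its exon sequence is shared with a gene on the opposite strand, where reads were not counted. Atf6 was at 84.5, 91.3, 96.3, 86.9 and 90.9 normalized CPM in WT and at 105, 86.0, 99.5, 97.5 and 97.8 in THRB-KO mice. Of the THRB-KO mice, 4 lay above all WT mice and mouse 2 did not, and the log2 fold change was 0.11 (95% confidence interval -0.043 to 0.27, adjusted p = 0.539 with edgeR).

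Among the transcription factors, Creb3l3, an ER-bound factor of hepatocytes that is cut in the Golgi like ATF6, was the gene closest to a call. It was at 341, 348, 412, 445 and 300 normalized CPM in WT mice and at 451, 503, 449, 404 and 448 in THRB-KO mice, of which mouse 4 alone lay within the WT range. The log2 fold change was 0.29 (standard error 0.11, 95% confidence interval 0.043 to 0.53, adjusted p = 0.284 with edgeR). Of the other tools, DESeq2 called it at the edge of the threshold, with an adjusted p that rounds to 0.15. With limma-voom it was not called (adjusted p = 0.216). Xbp1 was at 346, 354, 339, 369 and 227 normalized CPM in WT and at 273, 284, 364, 392 and 356 in THRB-KO mice. WT mouse 5 was the lowest of the 10 mice and THRB-KO mice 1 and 2 followed it, and the log2 fold change was 0.029 (95% confidence interval -0.28 to 0.34). Without WT mouse 5 it was -0.075. Atf4 was at 83.5, 82.7, 67.9, 101 and 97.6 normalized CPM in WT and at 99.3, 78.6, 69.3, 89.2 and 69.1 in THRB-KO mice, which overlapped throughout (log2 fold change -0.094, 95% confidence interval -0.37 to 0.18). Ddit3 was at 2.80, 3.46, 3.68, 3.63 and 2.96 normalized CPM in WT and at 5.38, 3.79, 2.37, 3.64 and 3.04 in THRB-KO mice. THRB-KO mouse 1 was the highest and THRB-KO mouse 3 the lowest, with a log2 fold change of 0.14 (95% confidence interval -0.29 to 0.57). Of the Ddit3 exon sequence, 10.9% is shared with other annotated genes, among them another gene model of the same name that had 0 counts in all libraries.

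**Figure D2:**
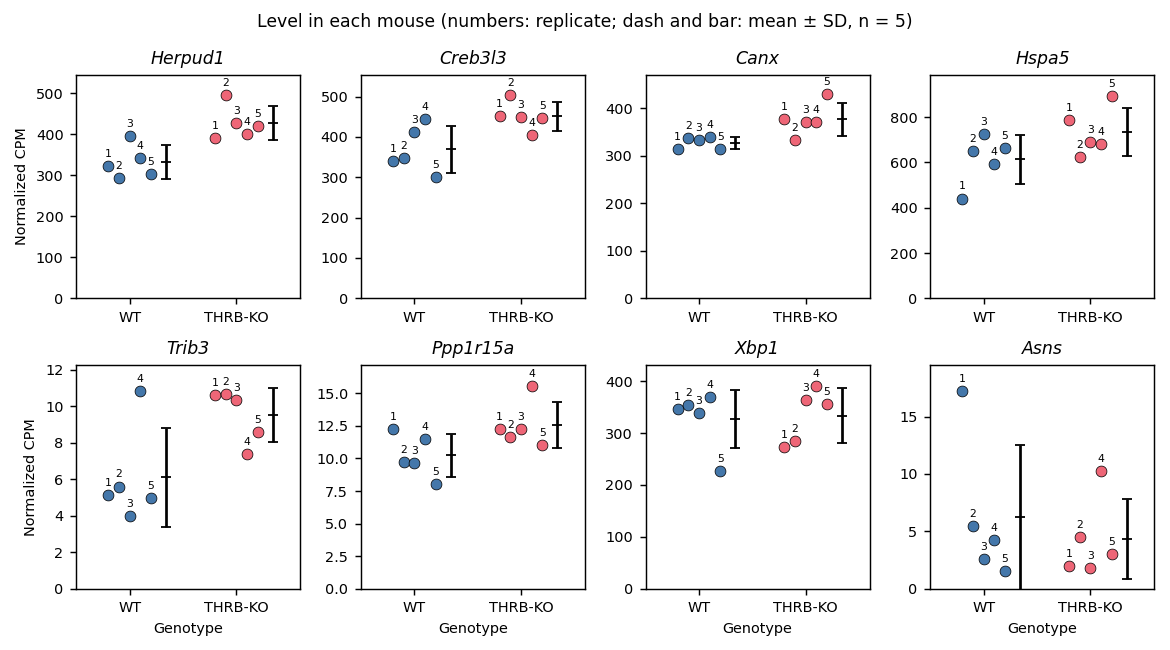
Normalized CPM (y axis, from 0) of 8 of the genes in each WT and THRB-KO mouse (x axis), with replicate numbers above the points and the mean ± SD of 5 mice beside them. Herpud1 overlaps in 1 WT mouse, while Trib3, Xbp1 and Asns each have 1 WT mouse far from the other 4. The SD bar of Asns in WT is cut at 0.

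None of the 10 luminal chaperones and cofactors passed the test with edgeR. Hspa5 was at 441, 649, 726, 591 and 665 normalized CPM in WT mice and at 788, 623, 691, 682 and 892 in THRB-KO mice. THRB-KO mice 1 and 5 lay above the WT range and WT mouse 1 below all others, and the log2 fold change was 0.26 (95% confidence interval -0.046 to 0.56, adjusted p = 0.453 with edgeR). Hyou1, the Hsp110-type exchange factor of BiP, had the largest fitted value of the group, 0.38, with a wide interval (-0.17 to 0.94). It ranged from 88.5 to 222 normalized CPM in WT and from 117 to 260 in THRB-KO mice. Dnajc3, a co-chaperone that also inhibits PERK, was at 0.19 (95% confidence interval -0.031 to 0.42), and Creld2, a secreted ER stress protein, at 0.25 (95% confidence interval -0.28 to 0.78). Hsp90b1, the ER Hsp90 chaperone, was at 381, 364, 331, 426 and 327 normalized CPM in WT and at 374, 368, 338, 349 and 531 in THRB-KO mice. Its value depended on THRB-KO mouse 5: the log2 fold change was 0.10 (95% confidence interval -0.18 to 0.38) with that mouse and -0.034 without it, and 15.7% of its exon sequence is shared with other genes. Over the 10 genes the fitted log2 fold changes went from -0.13 (Sdf2l1) to 0.38.

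Among the 7 disulphide isomerases and lectin chaperones, none was called with edgeR in all 10 mice, while DESeq2 called Canx (adjusted p = 0.113). Canx, the membrane-bound lectin chaperone calnexin, was at 315, 337, 333, 340 and 314 normalized CPM in WT and at 378, 333, 371, 372 and 430 in THRB-KO mice. In THRB-KO, 4 of the 5 mice lay above the WT range and mouse 2 within it, with a log2 fold change of 0.20 (95% confidence interval 0.021 to 0.38, adjusted p = 0.315 with edgeR). Without THRB-KO mouse 2 the adjusted p from edgeR was 0.149 and the log2 fold change 0.25. Pdia3, the isomerase that works with calnexin and calreticulin, was at 470, 449, 414, 503 and 363 normalized CPM in WT and at 432, 436, 435, 433 and 564 in THRB-KO mice. Among the latter, 4 differed by less than 5 normalized CPM and mouse 5 stood apart, and the log2 fold change went from 0.065 (95% confidence interval -0.18 to 0.31) to -0.019 when it was left out. Calr and P4hb, the most abundant of all, had log2 fold changes of 0.0030 (95% confidence interval -0.28 to 0.29) and -0.0011 (95% confidence interval -0.24 to 0.24). Pdia4 was at 0.091 (95% confidence interval -0.19 to 0.37) and Erp44, which retains client proteins by thiol exchange, at 0.084 (95% confidence interval -0.067 to 0.23).

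The translocon genes gave no call with edgeR either. Sec61a1, the pore subunit, was at 135, 162, 160, 165 and 157 normalized CPM in WT and at 165, 129, 162, 162 and 180 in THRB-KO mice. WT mouse 1 and THRB-KO mouse 2 were both low, and the log2 fold change was 0.036 (95% confidence interval -0.17 to 0.24). Sec61b, a small subunit of the same channel, was at 0.10 on the log2 scale (95% confidence interval -0.18 to 0.39).

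The 6 genes listed with the PERK-ATF4 branch held both the highest and the lowest fitted values of all 43. They were Trib3, Asns, Chac1, Sesn2, Ppp1r15a and Ppp1r15b, and whether each is an output of that branch in these livers was not tested. Trib3, a pseudokinase that ATF4 and CHOP induce, was at 5.15, 5.59, 3.97, 10.8 and 4.94 normalized CPM in WT mice and at 10.6, 10.7, 10.3, 7.38 and 8.59 in THRB-KO mice, from 111 to 305 counts per library. Every THRB-KO mouse was above 4 of the 5 WT mice, and WT mouse 4 was the highest of all. The log2 fold change was 0.64 (standard error 0.24, 95% confidence interval 0.12 to 1.17, adjusted p = 0.263 with edgeR). Without WT mouse 4 it was 0.95 with an adjusted p of 0.0126 in the same edgeR test. With all 10 mice, DESeq2 (adjusted p = 0.12) and limma-voom (adjusted p = 0.132) put Trib3 past 0.15, and the adjusted p ranged from 0.0126 to 0.999 among the alternatives. Ppp1r15a, the phosphatase subunit that ends the block of translation, was at 12.3, 9.75, 9.69, 11.5 and 8.05 normalized CPM in WT and at 12.3, 11.7, 12.3, 15.6 and 11.1 in THRB-KO mice. WT mice 1 and 4 overlapped the THRB-KO mice, and the log2 fold change was 0.29 (95% confidence interval 0.018 to 0.57, adjusted p = 0.334 with edgeR). Asns, asparagine synthetase, was at 17.2, 5.42, 2.61, 4.26 and 1.5 normalized CPM in WT and at 1.95, 4.5, 1.75, 10.3 and 3.04 in THRB-KO mice. WT mouse 1 and THRB-KO mouse 4 were high in both groups, the log2 fold change was -0.52 (95% confidence interval -2.09 to 1.04), and it was 0.32 without WT mouse 1. Sesn2, a stress-induced regulator of mTORC1, was at 0.11 (95% confidence interval -0.16 to 0.37).

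Of the genes printed above with an ERSE, edgeR called 0 of 9 (against 4.08% of all tested genes) and DESeq2 called Canx, and their fitted log2 fold changes went from 0.0030 to 0.26 with a median of 0.19. Of the CARE genes, 4 were tested and edgeR called 1 (Herpud1), against 4.08% of all tested genes. DESeq2 and limma-voom also called Trib3, in fits that called 885 and 880 of all genes, against 499 with edgeR. The values went from -0.52 (Asns) to 0.64 (Trib3), and 4 genes are too few to read a share. The sites in Asns, Chac1 and Atf3 are shown with 10 bases on each side, in capitals as above.
Asns, chr6:7693215-7693242, minus strand: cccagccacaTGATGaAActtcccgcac
Atf3, chr1:191183426-191183453, minus strand: cttctcgcacTTgCATCAccaagtccgc
Chac1, chr2:119351039-119351066, plus strand: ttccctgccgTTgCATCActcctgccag

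Mice of the same genotype differed from each other in these genes, and by role. Single mice named here and below were picked after their values were seen. Genes of the same role are not independent of each other, so the counts by mouse are descriptions. The median SD between mice within a genotype was 0.206 on the log2 scale over the 43 genes, against 0.182 over all tested genes, and it exceeded 0.3 in 10 of the 43 genes (23.3%), against 18.3% of all tested genes. Asns (1.06), Derl3 (0.929), Chac1 (0.594) and Hyou1 (0.468) had the highest SD, while Derl1 (0.0686), Erp44 (0.0863) and Atf6 (0.0913) had the lowest, all on the log2 scale and named after their values were seen. WT mouse 1 was the lowest WT mouse in 7 of the 10 luminal chaperones and cofactors, with a median deviation of -0.41 on the log2 scale. The same mouse was the highest in 5 of the 6 genes listed with PERK-ATF4, Ppp1r15b among them, with a median deviation of 0.26. It was the lowest WT mouse in 20.1% and the highest in 19.3% of all tested genes. Manf, an ER-resident survival factor, shows the first of these, at 28.1 normalized CPM in WT mouse 1 and 45.3 to 54.8 in the other WT mice. Chac1, which degrades glutathione, was at 9.95, 6.68, 9.83, 8.21 and 2.32 normalized CPM in WT mice 1 to 5, where mouse 5 was low and mice 1 and 3 were close.

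In the isomerases and lectins other mice stood out, though not in this role alone. WT mouse 5 was the lowest WT mouse in 6 of these 7 genes, with a median deviation of -0.18 on the log2 scale, and WT mouse 4 the highest in 6 of 7, with 0.19. For comparison, mouse 5 was the lowest WT mouse in 21.3% and mouse 4 the highest in 20.3% of all tested genes. Over all 43 genes, mouse 5 was the lowest WT mouse in 16 (37.2%) and mouse 4 the highest in 17 (39.5%). Among the luminal chaperones, Hsp90b1 and Dnajc3 also had WT mouse 4 highest and WT mouse 5 lowest. Pdia6 was at 279 normalized CPM in WT mouse 5 and 424 in WT mouse 4, and Sdf2l1, a cofactor of BiP, at 22.5 in WT mouse 5 and 35.6 to 48.7 in the other WT mice. WT mouse 5 was also the mouse with the low Xbp1, and its level of the clock gene Nr1d1 was 36.9 normalized CPM against 92.8 to 106 in the other WT mice and 72.9 to 166 in THRB-KO mice, a gene chosen after its values were seen. The part of the clock in these values of single mice was not tested. With the first component of the clock genes as a covariate, the log2 fold change of Xbp1 between genotypes was 0.0018 (edgeR). In THRB-KO mouse 5 both groups were high, with the highest value among THRB-KO mice in 7 of 10 luminal chaperones (median deviation 0.34 on the log2 scale) and in 5 of 7 isomerases and lectins (0.30), against 15% of all tested genes. Creld2 was at 56.9 normalized CPM in this mouse and at 22.4 to 36.1 in the other THRB-KO mice, and Sdf2l1 at 54.0 against 24.5 to 36.2. Of the 11 degradation genes, 5 were also highest in THRB-KO mouse 5 (median deviation 0.10), and of all 43 genes 18 were (41.9%). The genes listed with PERK-ATF4 did not share this, as 0 of 6 were highest in THRB-KO mouse 5. In THRB-KO mouse 4, 4 of 6 were highest, Ppp1r15b among them.

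**Figure D3:**
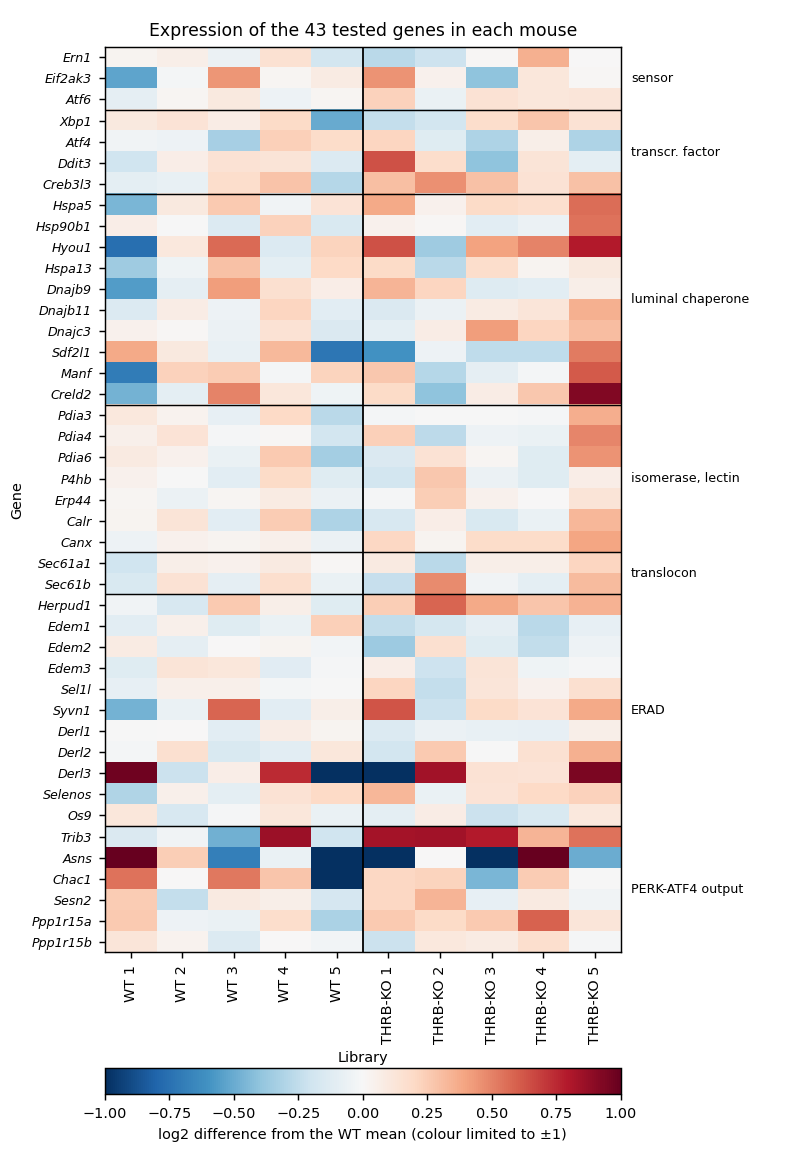
log2 difference of each of the 43 genes (rows, by role) from its mean over WT mice, in each of the 10 libraries (columns), with red above and blue below the WT mean and the colour limited to 1 in either direction. Of the 10 luminal chaperones and cofactors, 7 are lowest among WT mice in mouse 1, while Sdf2l1 is highest there. In THRB-KO mouse 5, 7 of these 10 are highest among THRB-KO mice. The line between WT and THRB-KO marks no change shared by all mice.

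**Figure D4:**
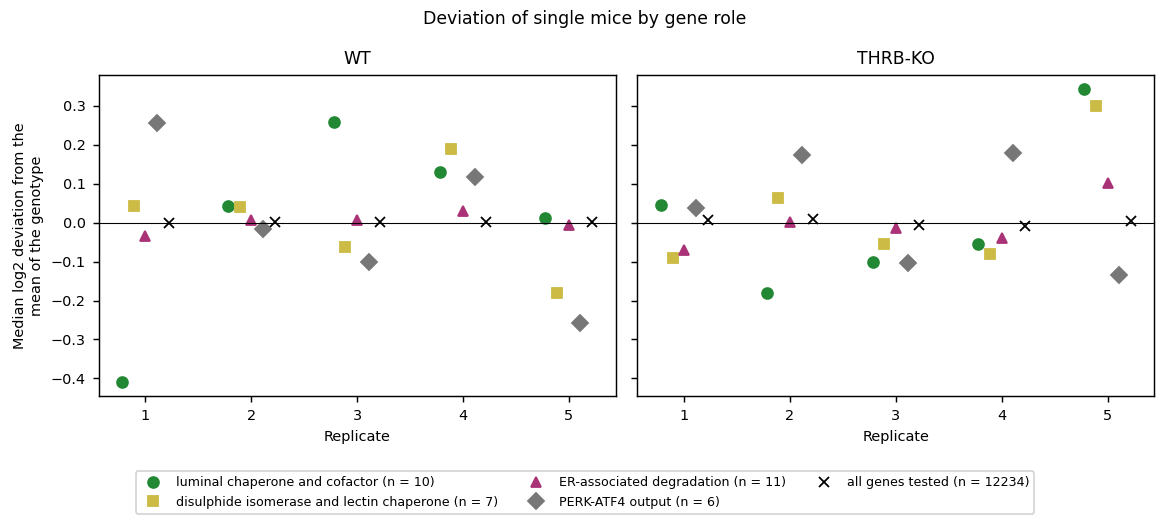
Median log2 deviation of each mouse (x axis, replicate) from the mean of its genotype (y axis) over the genes of 4 roles and over all tested genes. The all-gene medians lie near 0, while WT mouse 1 is at -0.41 in luminal chaperones and 0.26 in PERK-ATF4 genes.

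The wider secretory pathway was examined through 123 other genes in 6 lists, of which 118 were tested. At an adjusted p below 0.15, edgeR called 3, 2 higher and 1 lower, or 2.54%, against 4.08% of all tested genes. Of the 2 higher, Nupr1 reached the filter only through the THRB-KO libraries, which fixed its direction, so its call is a description. The 3 calls fell to 0 with the acute-phase covariate and without THRB-KO mouse 3 or 4. They fell to 1 with the replicate block and without WT mouse 2 or 4. The 25 other genes of translocation and of the oligosaccharyltransferase, which adds N-glycans, gave 0 calls (edgeR) and 0 at an unadjusted p below 0.05, with a median log2 fold change of 0.029 and the largest value in Ssr4 (0.13). The 17 other degradation genes gave 0 calls and 1 at an unadjusted p below 0.05, Rnf5 (0.18). The COPII list, the coat that exports cargo from the ER, gave 0 calls among 17 tested genes and 3 at an unadjusted p below 0.05, with the largest value in Sar1b, a GTPase of that coat, at 0.33 (adjusted p = 0.217 with edgeR).

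The 23 other folding enzymes and glycoprotein quality control genes gave 1 call with edgeR (4.35%, against 4.08% of all tested genes). At an unadjusted p below 0.05 there were 5 (21.7%, against 13.6%), 1 higher and 4 lower. The gene called was Dnajc10, an ER reductase that helps degradation. It fell from 33.4 ± 4.11 to 27.0 ± 2.08 normalized CPM (SD, n = 5 each), which was -0.31 on the log2 scale (edgeR adjusted p = 0.142). The largest value was that of Ero1lb, 0.47 (adjusted p = 0.193 with edgeR). Of the 21 tested genes of the integrated stress response beyond those above, 2 were called higher with edgeR (9.52%, against 4.08% of all tested genes). At an unadjusted p below 0.05 there were 5 (23.8%, against 13.6%), 4 higher, Nupr1 included, and 1 lower. The largest value was that of Fgf21, 2.30 (adjusted p = 0.324 with edgeR). Its range was 0.524 to 2.645 normalized CPM in WT and 1.06 to 32.4 in THRB-KO mice. Slc3a2, the heavy chain of amino acid exchangers, rose from 32.9 ± 3.30 to 43.2 ± 6.06 normalized CPM (SD, n = 5 each), a log2 fold change of 0.39 (adjusted p = 0.0898 with edgeR). Nupr1, a stress-induced nuclear protein, was at 0.529 ± 0.172 normalized CPM in WT and 1.51 ± 0.797 in THRB-KO livers (SD, n = 5 each), a level of few counts. It reached the filter only through the 5 THRB-KO libraries, which fixes its direction and the lack of overlap. Its call and its log2 fold change of 1.51 are therefore descriptions. Of the 6 genes listed with PERK-ATF4 above, edgeR called 0 in all 10 mice, and DESeq2 and limma-voom called Trib3. At an unadjusted p below 0.05 there were 2 with edgeR, Trib3 and Ppp1r15a, both higher (33.3%, against 13.6% of all tested genes). Herpud1, which holds a CARE but is listed with degradation, was called with edgeR as given above. Of 15 cytosolic and mitochondrial heat shock genes tested, 0 were called with edgeR and 2 had an unadjusted p below 0.05, with the largest value in Hspb1 (1.14, adjusted p = 0.238 with edgeR).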

How the data were processed

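Per the labels and the methods of the study, the authors mapped reads of stranded mRNA libraries (DNBSEQ) on mm10 with HISAT2 2.2.1 and deposited raw counts per Ensembl gene from HTSeq-count 0.9.1 (union mode, strand not used, reads with several positions or genes dropped). Genes with overlapping neighbours or near-identical copies are thus counted low. The table of the authors' edgeR 3.36.0 comparison (fold changes, p-values) was not used. The analysis here took the counts of all genes into edgeR 4.0.16 (R 4.3.3): at least 1 CPM in at least 5 libraries, TMM factors, robust quasi-likelihood F-test, Benjamini-Hochberg adjustment at 0.15, the threshold of the study, and also at 0.05. A standard error is the size of the fitted log2 value over the root of its F statistic, and 95% intervals use the test's degrees of freedom. The fit was tested on simulated data. Normalized CPM use TMM-scaled library totals. Deviations used log2(CPM + 0.5). Whether mice came from separate litters is not stated, and p-values set the difference between genotypes against the spread between these mice.

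Symbols, exon lengths and overlaps come from GENCODE M21 (GRCm38, the build of mm10), and 260 of the 55401 identifiers had no symbol there. Ddit3 was taken as the longer of 2 gene models of that name. The 44 genes, the other lists and the tests were chosen with earlier results of these data known. Values in each mouse are given for genes past 0.15, the sensors, Xbp1, Atf4, Ddit3, Hspa5 and genes with 1 library far from the rest of its group, and up to 4 genes a role by smallest unadjusted p were named; others are examples chosen after their values were seen. Alternatives were DESeq2 1.42.0, limma-voom (limma 3.58.1), the likelihood ratio test, normalization by RLE or upper quartile, filterByExpr or no filter at all, no robust settings, the replicate block, clock and acute-phase components as covariates, and leaving out each mouse.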

Additional observations from a re-analysis of the deposited data

Results flagged for a closer look

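In 110 groups of 5 mice (the 44 genes, Thrb, the summed marker lists and library totals, each per genotype), 8 had 1 mouse far from the other 4, where chance gives about 5.5. Xbp1 was low in WT replicate 5 (227 normalized CPM against 339 to 369). Hsp90b1 (531 against 338 to 374) and Pdia3 (564 against 432 to 436) were high in THRB-KO replicate 5. Sec61a1 was low in WT replicate 1 (135 against 157 to 165), and Asns was high in it (17.2 against 1.5 to 5.42). Trib3 was high in WT replicate 4 (10.8 against 3.97 to 5.59), and Ppp1r15a was high in THRB-KO replicate 4 (15.6 against 11.1 to 12.3). THRB-KO replicate 2 had 27779196 counts in total, against 28441288 to 28590704 in the other THRB-KO mice.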

How the results depend on the processing

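The count of 1 gene past 0.15 became 4 with DESeq2 (Herpud1, Canx, Creb3l3 and Trib3), 2 with limma-voom (Herpud1 and Trib3), 0 with the replicate block and 0 when the acute-phase component was a covariate. It lay between 0 and 2 when single mice were left out, in fits that called 222 to 665 of all tested genes. Over all genes, DESeq2 called 885, limma-voom 880 and the fit with the acute-phase component 9, against 499 in the reported fit. At 0.05 the count of 0 became 1 with DESeq2 and was 0 to 1 with a mouse left out. The count of 0 genes without overlap was 0 to 3 with a mouse left out, the highest without THRB-KO replicate 2. Smaller groups separate more easily, and the share of all tested genes was not computed there, so these counts have no comparison. The 3 calls among other pathway genes, Nupr1 included, became 8 with DESeq2, 8 with limma-voom and 6 by likelihood ratio. They became 1 with the replicate block, 0 with the acute-phase component and 0 to 4 with a mouse left out. The cause was not tested. The median log2 fold change of the 43 genes was 0.0229 to 0.104 over all alternatives. Thrb was at -0.357 with the acute-phase component where edgeR gave an adjusted p of 0.999, against 0.0359 in the reported fit. That component correlated with genotype at 0.844 over the 10 mice in absolute value.

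Herpud1 was higher in THRB-KO in 21 of 21 alternatives and stayed called in 11. It was at 0.365 with the replicate block (adjusted p = 0.241, edgeR), 0.193 with the acute-phase component and 0.309 to 0.434 with a mouse left out. With the clock component as a covariate it stayed called, at 0.373 (adjusted p = 0.112, edgeR). Equal replicate numbers showed no pairing of mice: deviations of such mice correlated between -0.201 and 0.00629. The replicate block gave 348 calls over all genes, against 499. With limma-voom the sign changed for Ern1 (0.00645), Eif2ak3 (-0.0441) and Ddit3 (-0.0569). With the acute-phase component it changed for Eif2ak3 (-0.0759), Xbp1 (-0.36), Atf4 (0.0968), Hyou1 (-0.0604), Dnajc3 (-0.0224), Creld2 (-0.335) and Sec61a1 (-0.103). With a mouse left out, values that changed sign went from -0.115 to 0.0505 for Ern1, -0.0817 to 0.163 for Eif2ak3, -0.0748 to 0.0931 for Xbp1, -0.0442 to 0.261 for Ddit3, -0.0337 to 0.161 for Hsp90b1, -0.0187 to 0.118 for Pdia3, -0.0256 to 0.172 for Pdia4, -0.0113 to 0.109 for Sec61a1 and -1.14 to 0.325 for Asns. A log2 fold change of 0.5 or less in genes of wide spread between mice, such as Asns, Derl3 and Chac1, lies within their intervals.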
